A study of Mus musculus with 4 samples.

Results

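Granule neurons of the dentate gyrus are made from neural stem cells into adult life, and 8 genes that mark successive steps of that lineage were described in mouse hippocampus: Sox2, Nes, Sox11, Dcx, Neurod1, Neurod2, Calb1 and Dsp. They were taken by symbol, as 8 of the 8251 genes that the array annotation names with a single symbol, and all their probe sets were used, 11 of 12422. A probe set is the group of short oligonucleotides with which the array reads a transcript. Total RNA of 4 hippocampus samples was measured, on 1 array each, and the labels, which name no strain, sex, age or treatment, put them in a single group. The samples are called 1 to 4, which are names only, and no comparison between groups was possible. No label says that the samples came from separate animals, so that the spread between them may be technical. The p-values below only set a probe set's spread over these samples against that of probe sets of like signal.

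In the dentate gyrus, radial stem cells beneath the granule cell layer carry the HMG-box transcription factor Sox2 and the intermediate filament nestin (Nes). Their daughters pass through a dividing stage and become immature neurons, which switch on Sox11, a related HMG-box factor, and the microtubule-binding protein doublecortin (Dcx). The basic helix-loop-helix (bHLH) factors Neurod1 and Neurod2 act in neuronal differentiation, and Neurod2 is kept in mature granule neurons, where calbindin (Calb1), a calcium-binding protein, and desmoplakin (Dsp), a desmosome protein used as a granule cell marker, are also found. None of these transcripts is limited to granule neurons: Sox2 is also carried by astrocytes, Nes by vessel cells, Neurod2 and Calb1 by pyramidal neurons, Calb1 by interneurons and Dsp by meningeal cells.

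The start regions of 4 of the genes are shown, Nes and Sox11 because their signals varied most over the samples, and Neurod1 and Neurod2 because they are paralogues whose signals were high in the same sample. Each window holds 250 bases before and 50 bases after the gene's start, 5′ to 3′ on the gene's strand, from RefSeq on mouse build GRCm38.p6. Capitals mark the E-box CANNTG, the motif that bHLH factors bind, searched on both strands. The Nes window lies at chr3:87970843-87971142 on the plus strand and the Sox11 window at chr12:27342669-27342968 on the minus strand. The Neurod1 window lies at chr2:79456587-79456886 and the Neurod2 window at chr11:98329596-98329895, both on the minus strand.
Nes: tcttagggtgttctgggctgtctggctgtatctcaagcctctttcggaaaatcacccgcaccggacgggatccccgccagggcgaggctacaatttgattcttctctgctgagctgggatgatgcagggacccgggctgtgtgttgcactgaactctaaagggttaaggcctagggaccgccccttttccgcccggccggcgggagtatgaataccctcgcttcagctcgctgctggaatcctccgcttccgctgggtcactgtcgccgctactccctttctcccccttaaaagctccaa
Sox11: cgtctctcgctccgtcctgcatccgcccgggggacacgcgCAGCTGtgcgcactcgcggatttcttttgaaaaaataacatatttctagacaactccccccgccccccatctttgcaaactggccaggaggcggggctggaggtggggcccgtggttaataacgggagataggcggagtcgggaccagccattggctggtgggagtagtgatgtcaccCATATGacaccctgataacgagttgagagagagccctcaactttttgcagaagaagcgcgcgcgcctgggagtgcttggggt
Neurod1: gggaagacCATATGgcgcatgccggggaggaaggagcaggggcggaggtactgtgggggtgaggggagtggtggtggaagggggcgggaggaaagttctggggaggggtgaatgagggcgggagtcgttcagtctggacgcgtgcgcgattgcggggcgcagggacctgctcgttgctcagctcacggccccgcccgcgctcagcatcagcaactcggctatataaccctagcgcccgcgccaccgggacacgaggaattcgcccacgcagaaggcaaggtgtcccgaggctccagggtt
Neurod2: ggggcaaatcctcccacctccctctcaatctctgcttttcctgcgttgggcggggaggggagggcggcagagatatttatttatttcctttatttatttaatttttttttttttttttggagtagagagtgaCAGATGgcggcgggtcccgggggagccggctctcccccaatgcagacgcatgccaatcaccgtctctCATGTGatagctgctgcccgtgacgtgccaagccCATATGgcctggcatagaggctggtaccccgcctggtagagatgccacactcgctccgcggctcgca
The windows held 0 E-boxes in Nes, 2 in Sox11, 1 in Neurod1 and 3 in Neurod2. At least 1 E-box was present in 72.3% of the 32851 windows of the RefSeq table, and in 5 of 8 windows of the 7 lineage genes with an entry. The E-box CATATG stood in the windows of Sox11, Neurod1 and Neurod2, where it began 32, 242 and 17 bases before the start, and in 3.91% of all windows. This form of the motif was singled out after the sequences had been read, and a match is a description of the letters and not of a bound site.

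Each of the 8 genes had 1 probe set whose mean exceeded the median over all probe sets, and these 8 were analysed among 6211. Their identifiers are 100009_r_at for Sox2, 103549_at for Nes, 101631_at for Sox11, 102307_at for Dcx, 92717_at for Neurod1, 98808_at for Neurod2, 98133_at for Calb1 and 94247_at for Dsp. Signals are given in quantile normalized array units, and values below 27.7 units, the 25th percentile, were treated as equal on the log2 scale. With 4 arrays, every value has limited precision. The remaining 3 probe sets, for Nes, Sox11 and Dsp, were below that median (161829_at, 93669_f_at and 161892_r_at). The level of a gene is not set against that of another gene, because probe sets bind with different strength. In such whole tissue, fewer cells of a type cannot be told apart from less RNA per cell.

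**Figure D1:**
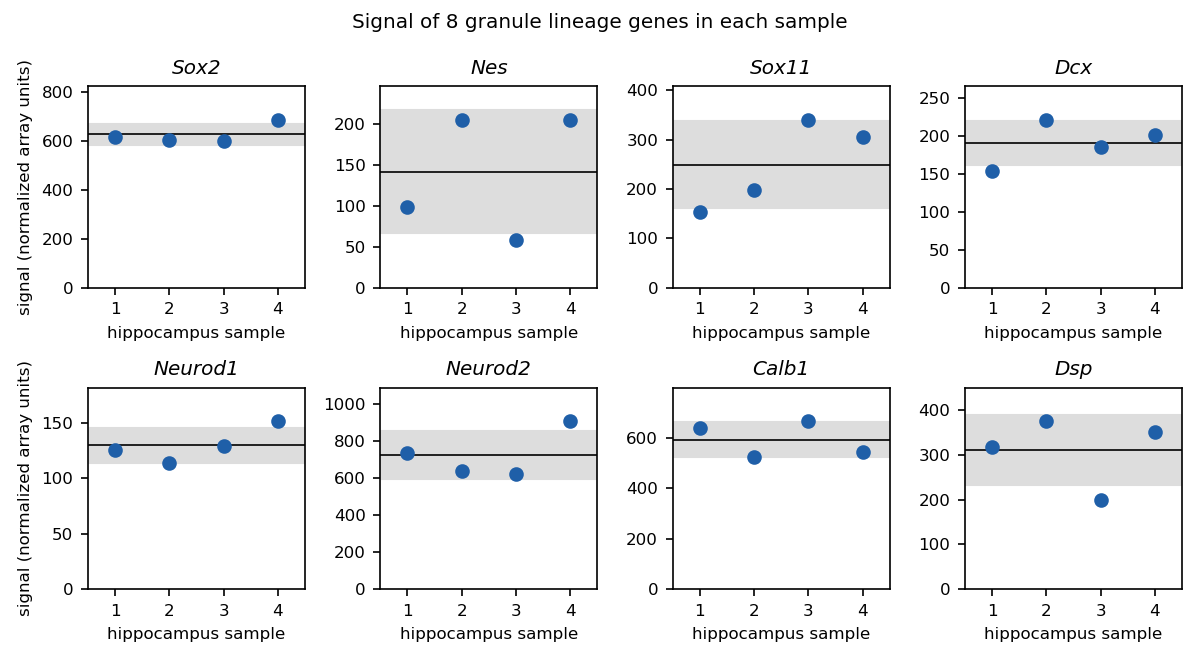
Signal of each gene in normalized array units (vertical axis, from 0) in hippocampus samples 1 to 4 (horizontal axis); points are single samples, the line is the mean and the grey band is the mean ± SD (n = 4). Nes was high in samples 2 and 4 (204 and 205 units), Sox11 in samples 3 and 4 (341 and 306 units), and Dsp was low in sample 3 (199 units).

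Of the stem cell genes, Sox2 was almost level over the samples, whereas Nes had the widest range of the 8 genes. Sox2 gave 615, 603, 601 and 688 units in samples 1 to 4 (mean 627 ± 41.1 units, SD, n = 4). Samples 1 to 3 lay close together and sample 4 above them, and the whole range was 0.19 log2 units, or 1.14-fold. Among the analysed probe sets, 6.6% had a smaller range. Median scaling of the arrays in place of quantile normalization gave Sox2 a range of 0.37 log2 units.

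Nes gave 98.55, 204, 58.7 and 205 units in samples 1 to 4 (mean 142 ± 74.65 units, SD, n = 4). Samples 2 and 4 were nearly equal and high, and samples 1 and 3 low. The range was 1.81 log2 units, or 3.495-fold, larger than that of 97.2% of analysed probe sets. The SD was 2.405 times that of probe sets of like signal, but the variance did not pass limma's one-sided F test over all analysed probe sets (Benjamini-Hochberg adjusted p = 0.818, and 0.755 to 1 over the alternatives). The second probe set of Nes gave 24.7, 15.45, 14.0 and 26.8 units, below the floor in every sample, and gives no check of the first. With the mean of both probe sets, the range of Nes was 1.87-fold, below 2-fold. The second probe set is level at the floor, so that this narrowing was fixed in advance. Without sample 3 the range of Nes was 2.08-fold.

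Of the immature neuron genes, Sox11 also varied, and Dcx did so less. Sox11 gave 153, 198, 341 and 306 units in samples 1 to 4 (mean 249 ± 88.5 units, SD, n = 4). Samples 3 and 4 were high and samples 1 and 2 low, in another order than for Nes. The range was 1.16 log2 units, or 2.23-fold, with an SD 2.01 times that of the trend (limma, adjusted p = 0.917, and 0.863 to 1 over the alternatives). Without sample 1 the range of Sox11 was 1.715-fold. Its second probe set, of a kind whose oligonucleotides can bind several related transcripts, gave 31.4, 33.1 and 40.75 units in samples 1 to 3, close to the floor, and 9.55 units in sample 4. Both probe sets were highest in sample 3, but they differed in the place of sample 4, and with the mean of both the range was 1.70-fold.

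Dcx gave 153, 221, 186 and 201 units in samples 1 to 4 (mean 190.1 ± 28.6 units, SD, n = 4). Sample 1 was lowest and sample 2 highest, a range of 1.44-fold, at the 50th percentile of analysed probe sets. Sample 1 was thus the lowest for both immature neuron genes, and without it the range of Dcx was 1.19-fold.

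The bHLH genes Neurod1 and Neurod2 were both highest in sample 4. Neurod1, a factor needed for the formation of the granule cell layer in mice, gave 126, 114, 129 and 152 units in samples 1 to 4 (mean 130.15 ± 15.8 units, SD, n = 4). Neurod2 gave 736, 638, 622 and 909 units (mean 726 ± 132 units, SD, n = 4). The ranges were 1.33-fold and 1.46-fold. Without sample 4 they were 1.13-fold and 1.18-fold, a narrower range for either gene. Each gene's log2 values were then centred on their mean. The root mean square difference over the 4 samples was 0.12 log2 units between Neurod1 and Neurod2. It was 0.085 between Sox2 and Neurod1 and 0.968 between Nes and Sox11, the closest and farthest of the 28 pairs. This difference grows with the genes' own ranges, so that genes of small range come out close whatever their order. Sox2 and Calb1 differed by 0.195, although in sample 4 Sox2 was above the other samples and Calb1 below.

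Of the mature granule cell genes, Calb1 varied little and Dsp was low in 1 sample. Calb1 gave 638, 522, 665 and 544 units in samples 1 to 4 (mean 592 ± 69.9 units, SD, n = 4). Samples 1 and 3 were above samples 2 and 4, a range of 1.27-fold. Dsp gave 316, 375, 199 and 351 units (mean 310.3 ± 78.1 units, SD, n = 4). Sample 3 was low and the other samples lay together, a range of 1.89-fold that fell to 1.19-fold without sample 3. The second probe set of Dsp gave 1.18 to 8.03 units, below the floor in all 4 samples.

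The ranges were next set beside those of all analysed probe sets. Of the 8 genes, 2 (25%) had a range of at least 2-fold, against 14.4% of the 6211 analysed probe sets and 12.9% of the 4839 named genes they cover. The median range was 0.54 log2 units over the 8 genes and 0.53 over all analysed probe sets. No gene of the 8 and no other analysed probe set passed the variance test once p-values were adjusted (limma, Benjamini-Hochberg, smallest adjusted p = 0.316, 0% called). With 4 samples even a wide range did not pass this test: Pttg1, with a 13.1-fold range, had an adjusted p of 0.316 in it. Not passing therefore does not show that a gene's signal was even. At an unadjusted p under 0.05 there were 364 probe sets (5.86%), Nes among them. The trend was fitted to these same probe sets, so that this share says little about them.

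**Figure D2:**
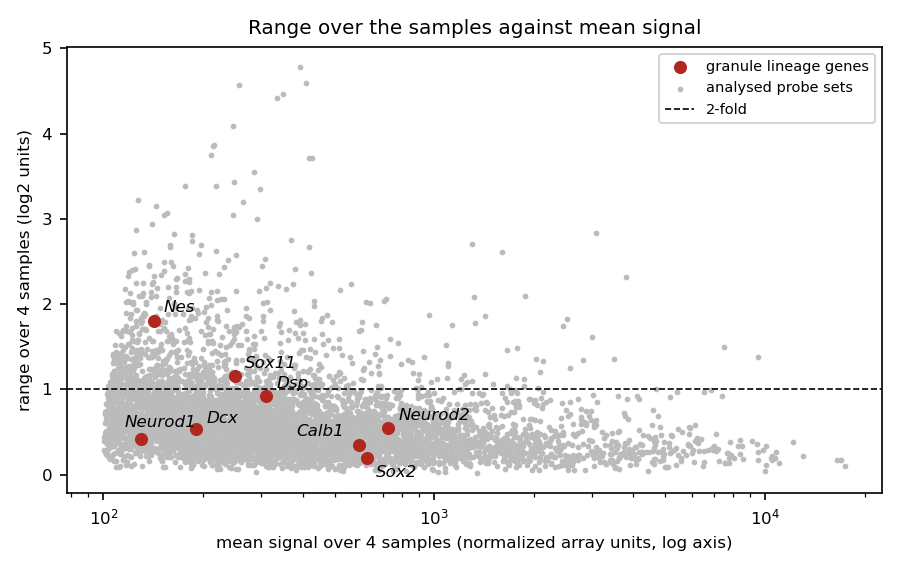
Range over the 4 samples in log2 units (vertical axis) against the mean signal in normalized array units (horizontal axis, log scale) for the 8 lineage genes (red) and all 6211 analysed probe sets (grey); the dashed line marks a 2-fold range. Nes and Sox11 lie above the line, at 1.81 and 1.16 log2 units, and Sox2 lies at 0.19.

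By sample, the lineage genes were mostly high in sample 4. In that sample 7 of 8 genes exceeded the mean of samples 1 to 3, against 52.2% of all analysed probe sets, and the median log2 deviation was 0.30, against 0.018. Nes had the largest deviation in sample 4, 0.96, followed by Sox11 at 0.49, Neurod2 at 0.45, Neurod1 at 0.31, Dsp at 0.29, Sox2 at 0.18 and Dcx at 0.12. Calb1 was the exception, at -0.15. The median was 0.16 with the mean over a gene's probe sets, which takes in the 3 probe sets near or below the floor. In sample 4, 7 genes were above with each scaling tried, and 6 when sample 1 was left out.

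In sample 1, 3 of 8 genes were above the mean of the others, against 51.4% of analysed probe sets, with a median of -0.042. In sample 2, 3 of 8 were above, against 51.1%, with a median of -0.15. In sample 3, 2 of 8 were above, against 51.1%, with a median of -0.053, and Nes and Dsp were far below, at -1.45 and -0.80. The highest value fell in sample 4 for 4 genes, in samples 2 and 3 for 2 genes each, and in sample 1 for none of the 8. Over all analysed probe sets, the highest value fell in samples 1 to 4 in 24.7%, 21.6%, 22.5% and 31.2%, so that sample 4 was the most frequent there too. The lowest value fell in samples 1 to 4 in 23.2%, 22.7%, 23.4% and 30.6% of them. For the lineage genes it fell there in 2, 2, 4 and 0. Without sample 4, the median of the lineage genes was 0.045, -0.048 and -0.005 in samples 1, 2 and 3, with 5, 3 and 4 of 8 genes above. Without sample 3 the median in sample 1 was -0.13, without sample 2 it was -0.11, and that of sample 3 was -0.14 without sample 1 and -0.11 without sample 2.

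Sample 4 also stood apart from the others in measures of the array. Pearson's r across analysed probe sets, which are not independent replicates, was 0.912 to 0.929 for pairs with sample 4 and 0.944 to 0.953 for the other pairs. The ratio of 3′ to 5′ signal, which rises when the RNA or its copy is less complete, was 2.03 for beta-actin in sample 4 and 1.51 to 1.845 in the others, and 1.15 for Gapdh in sample 4 and 0.864 to 0.981 in the others. The part of these differences in the deviations of the lineage genes was not tested. Without sample 4, the range of Nes was 3.335-fold, that of Sox11 2.22-fold and that of Sox2 1.025-fold. The range of Nes was narrowest, among the omissions of 1 sample, without sample 3, at 2.08-fold.

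General neuronal genes deviated in the opposite direction in sample 4. Of 10 analysed pan-neuronal genes, 1 exceeded the mean of samples 1 to 3 there, with a median of -0.29. Their signals summed to 22197 units in sample 4 and to between 25394 and 29114 units in samples 1 to 3. Such sums, here and below, are set mostly by the brightest probe sets, and dim ones such as those of Map2 and Nefm add little. The cytoskeletal genes Map2 and Nefm gave 63.9 and 70.05 units in sample 4, below 171 to 305 and 165 to 247 units in the others. The vesicle protein gene Syt1 gave 605 units in sample 4 and 718 to 2039.9 units in the others. Snap25, of the same release machinery, gave 7326 units in sample 4 and 8169.7 to 9251 units in the others. Of 6 genes of the pyramidal cell fields, 1 was above in sample 4, with a median of -0.38; Wfs1 and Dkk3 gave 449 and 677 units there, below 539 to 725 and 1282 to 1475 units in the others, and Bok gave 828 units, within its range of 621 to 911 units. The difference between the lineage genes and these lists was not tested.

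**Figure D3:**
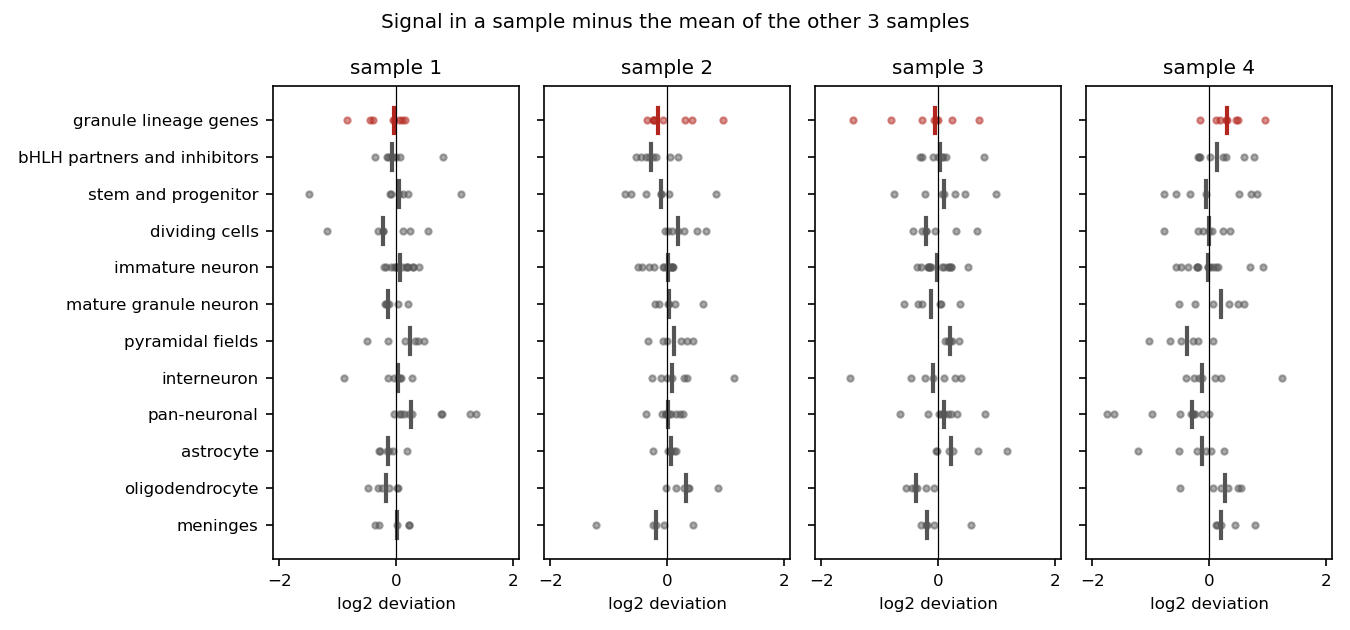
Log2 deviation of a sample's signal from the mean of its 3 companions (horizontal axis) in each sample (panels) for the genes of 12 groups (rows); points are genes and bars are medians. In sample 4 the lineage genes have a median of 0.30, and the pan-neuronal and pyramidal field genes have medians of -0.29 and -0.38.

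Other genes of the lineage were read from lists of known markers, each gene through its analysed probe set of highest mean. Of 16 stem and progenitor genes on the array, 7 were analysed. A range of at least 2-fold was reached by 4 of these (57.1%), against 14.4% of all analysed probe sets. Medians by sample ran from -0.10 to 0.10. Notch1, a receptor that keeps stem cells undifferentiated, gave 53.3, 179, 194 and 98.3 units in samples 1 to 4. Fabp7, a lipid-binding protein of radial glia, gave 872, 466.5, 436 and 330.2 units. Gfap, the filament of astrocytes and stem cells, gave 827, 876, 581 and 1320.2 units. Sox3, a relative of Sox2, gave 168, 122, 187 and 257 units and was named after its values had been seen. Gfap thus had the sample order of Nes, highest in sample 4 and lowest in sample 3, while Notch1 was high in samples 2 and 3 and Fabp7 in sample 1. Second analysed probe sets gave Gfap 214, 221, 152 and 231 units, a range of 1.52-fold, and Notch1 111, 125, 221 and 36.3 units.

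Of 17 genes of dividing cells on the array, 7 were analysed. A range of at least 2-fold was reached by 2 of these (28.6%), against 14.4% of all analysed probe sets. Cyclin D2 (Ccnd2), a cell cycle regulator of neural progenitors, gave 54.25, 117, 143 and 114 units in samples 1 to 4, and the replication helicase subunit gene Mcm5 gave 177, 189, 106 and 88.9 units. The proliferation markers Mki67 (91.4 to 126 units) and Pcna (245 to 301 units) had ranges of 1.38-fold and 1.23-fold. These were larger than those of 41.3% and 18.4% of analysed probe sets. The mean of Mki67, 108 units, was close to the median of 99.6 units that analysed probe sets had to exceed.

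Of 18 immature neuron genes on the array, 14 were analysed. A range of at least 2-fold was reached by 1 of these (7.14%), Sox4, against 14.4% of all analysed probe sets. Sox4, the closest relative of Sox11 on the list, gave 249.8, 222, 239 and 450.25 units in samples 1 to 4. By this probe set it was high in sample 4 only, whereas Sox11 was high in samples 3 and 4. A second analysed probe set of Sox4 gave 113, 119.75, 87.1 and 136 units, a range of 1.56-fold, with sample 4 highest but not apart from the others. Stmn1, a tubulin-binding protein, stayed between 2822 and 3453 units. The list's medians ran from -0.024 to 0.060 over the samples, and in sample 4 it had 6 of 14 genes above the others.

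Of 10 bHLH partners and inhibitors on the array, 8 were analysed. A range of at least 2-fold was reached by 0 of these, against 14.4% of all analysed probe sets. In sample 4, 5 were above, against 52.2% of all analysed probe sets, with a median of 0.13. Tcf3 and Tcf4 encode E proteins, with which Neurod factors pair on the E-box. Tcf3 gave 143, 131, 131 and 228 units over the samples and was highest in sample 4, as Neurod1 and Neurod2 were. Tcf4 gave 1438, 1531, 2614 and 1601 units and was highest in sample 3. Other genes of the list were named after their values had been seen. The inhibitors Id2, Id3 and Id4 were also highest in sample 4, at 1073, 401 and 736 units. Id1 (40.5 units, below the signal filter), Tcf12 (331 units) and Hey1 (388 units) were lowest there. Neurod6 was highest in sample 1, at 537 units, against 360 units in sample 4.

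Of 9 further genes of mature granule neurons on the array, 6 were analysed. A range of at least 2-fold was reached by 0 of these, against 14.4% of all analysed probe sets. In sample 4, 4 were above, against 52.2% of all analysed probe sets, with a median of 0.20. Tdo2, a tryptophan-degrading enzyme, gave 96.2, 141, 105 and 78.5 units in samples 1 to 4, and Lct, lactase, gave 231, 273, 220.48 and 303 units. Prox1, the factor that fixes granule cell identity, had a mean too low for analysis and was named after its values had been seen. It gave 64.1 and 109 units in samples 1 and 3, and 27.35 and 16.7 units, below the floor, in samples 2 and 4. Without detection calls, whether such a signal is above background cannot be settled.

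Lists of other cells were read beside the lineage genes that those cells share. For Dsp, which meningeal and epithelial cells also carry, sample 3 had 1 of 5 meningeal genes above the other samples, with a median of -0.20, and 0 of 2 choroid plexus genes, with a median of -0.72. Sample 2, where Dsp was highest, also had 1 of 5 meningeal genes above, with a median of -0.19. The meningeal genes summed to 3398 units in sample 3 and to 3521, 2986 and 3882.5 units in samples 1, 2 and 4. In sample 4, 5 of 5 meningeal genes were above, with a median of 0.21. Dcn gave 723, 343, 869 and 813 units and Col1a1 gave 182, 192, 182 and 319 units in samples 1 to 4. The choroid plexus gene Ttr gave 954 units in sample 3 and 1236 to 2629.5 units in the others, and Kl gave 138 units in sample 3 and 152 to 247 units in the others. Of the desmosome partners of Dsp, 3 of 9 on the array were analysed, with medians from -0.026 to 0.064: plakoglobin (Jup) gave 259, 181, 152 and 242 units, lowest in sample 3 as Dsp was, and Pkp2 gave 343, 439, 398 and 382 units. The part of such cells in the low Dsp signal was not tested.

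For Sox2, which astrocytes also carry, 2 of 6 astrocyte genes were above in sample 4, with a median of -0.13, and their signals summed to 9137 units there and to between 9374 and 10301 units in the others. Aqp4 gave 603, 739, 994 and 532 units, Slc1a2 gave 189.68, 219, 373 and 107 units, and Aldoc stayed between 4931 and 5226 units. Gfap, counted above with the stem and progenitor genes, gave 1320 units in sample 4 and 581 to 876 units in the others. The part of astrocytes in the Sox2 signal was not tested. For Calb1, which interneurons also carry, 7 interneuron genes had medians from -0.12 to 0.091; Gad1 gave 2129, 1954, 2387 and 1796 units and Slc32a1 gave 376, 1074, 272 and 1139 units. In Slc32a1, as in Nes, samples 2 and 4 were high and samples 1 and 3 low. Of 6 oligodendrocyte genes, 5 were above in sample 2 and 5 in sample 4, with Mbp at 3629.8, 4760.15, 3397 and 4883 units, Mog at 185, 239, 157 and 219.66 units, and Mag at 528, 818, 425 and 403 units. Their signals summed to 10200.0 and 10628 units in samples 2 and 4, where Nes was high, and to 7625 and 7489.5 units in samples 1 and 3, where it was low. Mbp makes up a large part of these sums. A second analysed probe set of Mbp gave 381, 288, 398 and 410 units in samples 1 to 4, lowest in sample 2. The part of these genes in the Nes signal was not tested. Of 4 analysed genes of the thalamus and other bordering tissue, 3 were above in sample 4, with a median of 0.28; Prkcd gave 439.57, 452, 478 and 528 units, Tcf7l2 gave 407, 269.85, 172 and 339 units, and Foxj1 gave 138, 164, 88.0 and 199 units.

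Of the named genes other than the 8 lineage genes, 8 had a second analysed probe set, and for 3 of these, Mag, Pkp2 and Prkcd, it was highest in another sample than the one given here. Only the highest sample was compared, so that the other genes' probe sets may still differ in the remaining samples, as those of Mbp did.

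The genes with the pattern most like that of the 3 widest-ranging lineage genes were found by the root mean square difference of centred log2 values over the 4 samples, among 4831 other named genes. For Nes these were Slc25a17, a peroxisomal carrier, Ankrd13a, and Psmb6, a proteasome subunit, at 0.17, 0.18 and 0.20 log2 units. Slc25a17 gave 267, 533, 209 and 621 units in samples 1 to 4, and no gene lay within 0.1 of Nes. For Sox11 they were the NAD kinase gene Nadk, the cytokine receptor gene Lifr and the amino acid transporter gene Slc38a2, at 0.069, 0.076 and 0.091. Nadk gave 174, 205, 397 and 325 units, and 3 genes lay within 0.1 of Sox11. For Dsp they were Cd34, Spcs2 and Top3a, at 0.051, 0.060 and 0.0725. Cd34, a surface protein of vessel and blood stem cells, gave 137, 148, 80.2 and 143 units, and 18 genes lay within 0.1 of Dsp. With 4 values per gene, such likeness is a description only, and the difference also grows with a gene's own range.

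**Figure D4:**
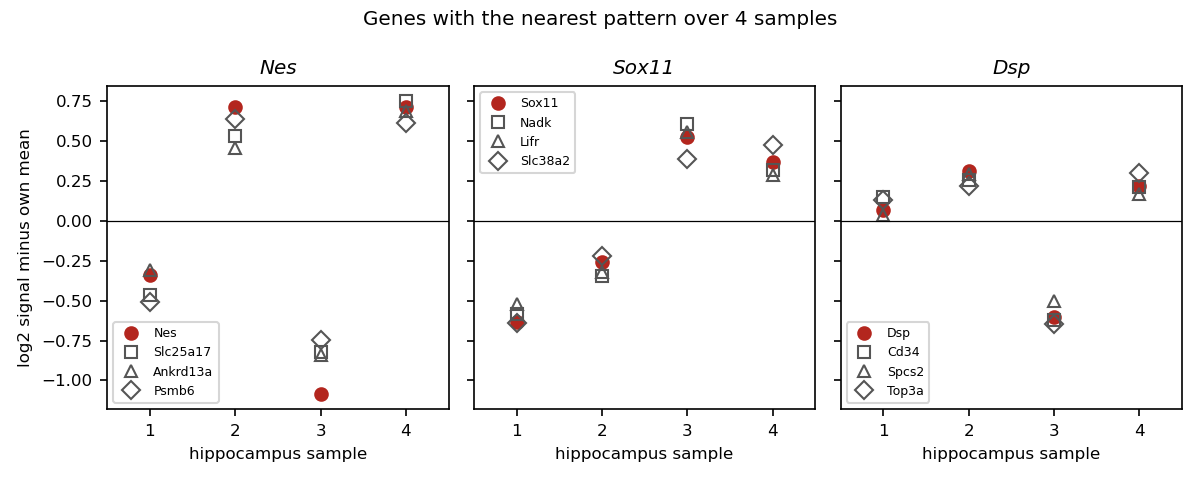
Log2 signal minus the gene's own mean (vertical axis) in samples 1 to 4 (horizontal axis) for Nes, Sox11 and Dsp (red circles) and the 3 named genes nearest to each (open symbols). The genes nearest to Nes are high in samples 2 and 4, those nearest to Sox11 in samples 3 and 4, and those nearest to Dsp are low in sample 3.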

How the data were processed

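Hippocampus RNA was measured on 1 Affymetrix array per sample. Linear intensities were deposited for 12422 probe sets and 66 controls; the software behind them is not given in the sources used here. The 2% trimmed mean was 250.1 units on each array, so that arrays had been scaled before deposit. Controls were left out. Quantile normalization used limma 3.58.1 (R 4.3.3); values were floored at the 25th percentile (27.7 units) and taken to log2. Probe sets whose mean log2 value exceeded the median mean were analysed. Excess variance was tested against limma's robust intensity trend (one-sided F test, 3 residual and 5.20 prior degrees of freedom, Benjamini-Hochberg at 0.05), which was tested on simulated data. A range of at least 2-fold over the samples was counted without a test. Symbols were updated through Entrez identifiers to RefSeq GRCm38.p6 for 10817 of 10833 probe sets with 1 symbol; 396 had several and 1193 none. Named were the 8 genes, the first 2 analysed genes and up to 3 with the largest range of at least 2-fold from each of 14 marker lists, and the 3 genes nearest in pattern to the 3 widest-ranging lineage genes. Genes, lists and rules were chosen with earlier results of these data known. Alternatives covered the normalization, floor, filter, variance trend, probe set choice and leaving out each sample.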

Additional observations from a re-analysis of the deposited data

Results flagged for a closer look

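The gap of 1 sample to its nearest neighbour was set against Dixon's critical value, leaving out Id1 to Id4, Neurod6, Tcf12 and Hey1. In 7 of 57 probe sets of the other named genes with all values above the floor, 1 sample lay past that value. Chance gives about 1 in 20 for genes chosen without regard to their values, but several of these were named for a wide range, for a pattern like that of Dsp (Cd34) or after their values had been seen (Gli1), so that their share cannot be set against that rate. Of the 6200 analysed probe sets with all values above the floor, 5.97% passed. Sox2 was high in sample 4, at 688 units, against 601 to 615 units in samples 1 to 3. The gap is judged against a gene's own range, which for Sox2 was only 1.14-fold, with an SD 0.443 times that of the trend. Sox4 was high in sample 4 as well, at 450.25 units, against 222 to 249.8 units, but its second probe set did not set that sample apart. The E protein gene Tcf3 gave 228 units in sample 4, against 131 to 143 units. Its relative Tcf4 gave 2614 units in sample 3, against 1438 to 1601 units. The collagen gene Col1a1 gave 319 units in sample 4, against 182 to 192 units. Cd34 was low in sample 3, at 80.2 units, against 137 to 148 units. Gli1, which fell below the signal filter, was high in sample 2, at 98.65 units, against 36.6 to 39.1 units.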

How the results depend on the processing

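No probe set passed the variance test under any alternative run, with 299 to 386 at an unadjusted p under 0.05. The number of lineage genes with a range of at least 2-fold was 0 with the mean over a gene's probe sets. There the second probe set of Nes, level at the floor, narrows its range by construction. The number was 1 to 2 when each sample was left out in turn, with Sox11 lost without sample 1. It was 2 under the other alternatives. Among all analysed probe sets, 897 reached 2-fold, against 571 with 32 units added in place of the floor, 2810 of 12422 without the filter on low values, and 413 to 683 when each sample was left out. Leaving out a sample cannot widen a range, apart from the renewed normalization. The median deviation of the lineage genes in sample 4 was 0.16 to 0.35 over the alternatives. In samples 1, 2 and 3, leaving out a sample moved it to between -0.13 and 0.045, -0.15 and -0.048, and -0.14 and -0.005. Of 80 alternative values of single genes' ranges, 72 moved by less than 1 SD of the gene over the samples and 8 by more. Of the 8, those of Nes and Dsp moved with the mean over probe sets, where their second probe set is level at the floor. Those of Dcx, Dsp, Sox2, Neurod1 and Neurod2 moved without the sample that was the gene's lowest or highest. That of Sox2 also moved with median scaling, the cause of which was not tested. No paired analysis was possible because the samples form 1 group. Signals near the floor cannot be told from background.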

Other observations

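Of 17 genes of dividing cells and intermediate progenitors on the array, 7 were analysed. Some of the others were above the floor in every sample. By construction, 25% of the values on each array lay below this floor of 27.7 units. Several genes of the list gave signals below the floor in all 4 samples. These were Eomes, the factor of intermediate progenitors (1.18 to 1.93 units), the mitotic kinase gene Cdk1 (9.68 to 16.7 units) and the topoisomerase gene Top2a (4.32 to 23.9 units). The proneural gene Neurog2 was above the floor in sample 2 alone, at 34.9 units. They were named after their values had been seen, and a value below the floor does not show that a transcript is absent. Among low stem cell genes, Pax6 gave 89.6, 62.1, 84.4 and 98.4 units in samples 1 to 4, and the hedgehog target Gli1 gave 39.1, 98.65, 37.75 and 36.6 units, high in sample 2. The hedgehog effector Gli2 gave 89.6 and 71.5 units in samples 1 and 3 and 10.3 and 12.65 units, below the floor, in samples 2 and 4.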
